A study of Mus musculus with 8 samples.

Results

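The 9 Kupffer cell identity genes Clec4f, Timd4, Marco, Cd5l, Vsig4, Adgre1, Csf1r, Cd163 and Folr2 were followed in liver RNA from Brap LKO and Brap F/F mice. They were chosen by symbol in the table of normalized counts, and all 9 had a row among its 24451 genes. All 9 also passed the filter on low values (at least 5 normalized counts on average), which left 15352 genes for the test. The study compared the left liver lobe of 4 Brap LKO mice (Brap fl/fl, Alb Cre+) with that of 4 Brap F/F mice (Brap fl/fl, Alb Cre-), the littermate genotype without Cre. All were C57BL/6 mice of 18 wk, fasted for 6 h, and the study used males. Each liver was sequenced once as single-end reads of 50 bases. The floxed allele, with loxP sites around exons 2 and 3 of Brap, is carried by all 8 mice. Cre was driven by the albumin promoter, which is active in hepatocytes, so that Kupffer cells, which descend from blood-forming precursors, were not the cells targeted by the design.

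The libraries held 26280884 to 33313914 reads on genes, and 5486 to 11484 of them fell on the 9 members. The lowest member count in any liver was 70 reads, for Marco in Brap F/F replicate 3. Brap itself averaged 3988 ± 242 normalized counts in Brap LKO and 4186 ± 179 in Brap F/F (SD, n = 4 each), with a log2 fold change of -0.07 and a limma adjusted p = 0.631. A count over the whole gene includes the exons that Cre leaves in place and cells without Cre, and reads on exons 2 and 3 alone were not analysed here, so that Brap did not check the labels. The groups are therefore those of the labels, and every direction given for the livers labelled Brap LKO rests on them. Albumin took the most reads of any hepatocyte marker, and Clec4f and Cd5l, which define Kupffer cells, had at least 1279 normalized counts in every liver, so that both the organ and the resident macrophages were present in all 8 samples.

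Kupffer cells are the resident macrophages of the liver. They lie in the sinusoids, where scavenger and complement receptors let them clear bacteria, dying cells and aged red cells from the blood. Their identity is kept by ligands from the neighbouring endothelial, stellate and parenchymal cells and by the transcription factors LXRα, SPI-C, ID1 and ID3, and it depends on signaling through the CSF1 receptor. When Kupffer cells are lost, monocytes can enter the liver and take on many of the same genes, with Timd4 among the last to appear. The study asked whether loss of Brap in hepatocytes is accompanied by inflammation, for which it used F4/80, the product of Adgre1, as a macrophage marker. F4/80 is shared by several kinds of macrophage, whereas Clec4f is used as a marker of Kupffer cells. In bulk liver RNA, fewer cells of a type and less RNA per cell cannot be told apart.

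Of the 9 members, 8 did not separate the groups, and 1, Cd163, was lower in every Brap LKO liver than in any Brap F/F liver. Among all tested genes, every Brap LKO liver lay below every Brap F/F liver in 4.39% and above it in 5.48%. A count of 1 in 9 is near these shares taken in both directions. No member passed an adjusted p-value of 0.05 in limma (0 of 9), and 1 of 9 had an unadjusted p-value under 0.05. In edgeR 0 of 9 passed, and in DESeq2, the method of the study, 1 of 9 passed, Cd163. Over all tested genes 0.769% were called in either direction by limma, 0.795% by edgeR and 4.07% by DESeq2, and 15.8% had an unadjusted p-value under 0.05. Cd163 came close in limma, with an adjusted p = 0.0532, and its call differed between settings. The members are described below in the order of their roles: the lectin that marks the cells, receptors that bind dying cells and bacteria, the secreted scavenger protein, the complement receptor, the F4/80 antigen, the growth factor receptor, the hemoglobin receptor and the folate receptor.

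The proximal promoters of 3 members are shown because Clec4f and Vsig4 varied together from liver to liver, while Cd163 was the member that departed from them. They come from RefSeq (GRCm38.p6, the assembly of mm10), in which 7 of the 9 members had a promoter. Each is the stretch of 250 bases before the annotated start, read 5′ to 3′ on the strand of the gene. Clec4f lies at chr6:83656117-83656366 on the minus strand, Vsig4 at chrX:96293439-96293688 on the minus strand, and Cd163 at chr6:124304401-124304650 on the plus strand. Capitals mark the 3 motifs searched on either strand: GAGGAA (a core bound by PU.1 and other ETS factors), TGCTGA (a MAF half-site) and AGGTCA (a half-site of nuclear receptors).
Clec4f: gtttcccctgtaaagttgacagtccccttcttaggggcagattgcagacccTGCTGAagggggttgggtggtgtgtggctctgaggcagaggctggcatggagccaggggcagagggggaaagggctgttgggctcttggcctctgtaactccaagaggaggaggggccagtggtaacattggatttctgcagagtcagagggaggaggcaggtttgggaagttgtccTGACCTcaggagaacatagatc
Vsig4: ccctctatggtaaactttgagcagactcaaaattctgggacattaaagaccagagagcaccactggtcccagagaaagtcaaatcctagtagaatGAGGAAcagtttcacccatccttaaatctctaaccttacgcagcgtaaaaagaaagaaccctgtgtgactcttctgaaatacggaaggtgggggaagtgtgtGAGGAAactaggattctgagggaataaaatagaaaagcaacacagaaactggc
Cd163: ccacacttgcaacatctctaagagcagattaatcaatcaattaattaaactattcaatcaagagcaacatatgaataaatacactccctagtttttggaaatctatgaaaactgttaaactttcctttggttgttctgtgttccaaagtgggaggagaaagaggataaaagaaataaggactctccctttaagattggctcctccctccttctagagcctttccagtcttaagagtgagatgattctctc

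Clec4f held 1 match to TGCTGA and 1 to AGGTCA, Vsig4 held 2 matches to GAGGAA, and Cd163 held none of the 3 motifs in this window. With the 50 bases after the start included, as in the RefSeq table, 3 of the 8 member promoters (Marco, Cd5l and Vsig4) held GAGGAA, which 28.3% of the 32851 promoters of the same length held. TGCTGA was in 6 of the 8 member promoters and in 19.5% of all, and AGGTCA in 2 of 8 and in 16.3% of all. The 8 promoters belong to 7 genes, since Folr2 has 2 starts. A match is a description of the sequence only, and nothing follows for a factor from the lack of one.

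**Figure D1:**
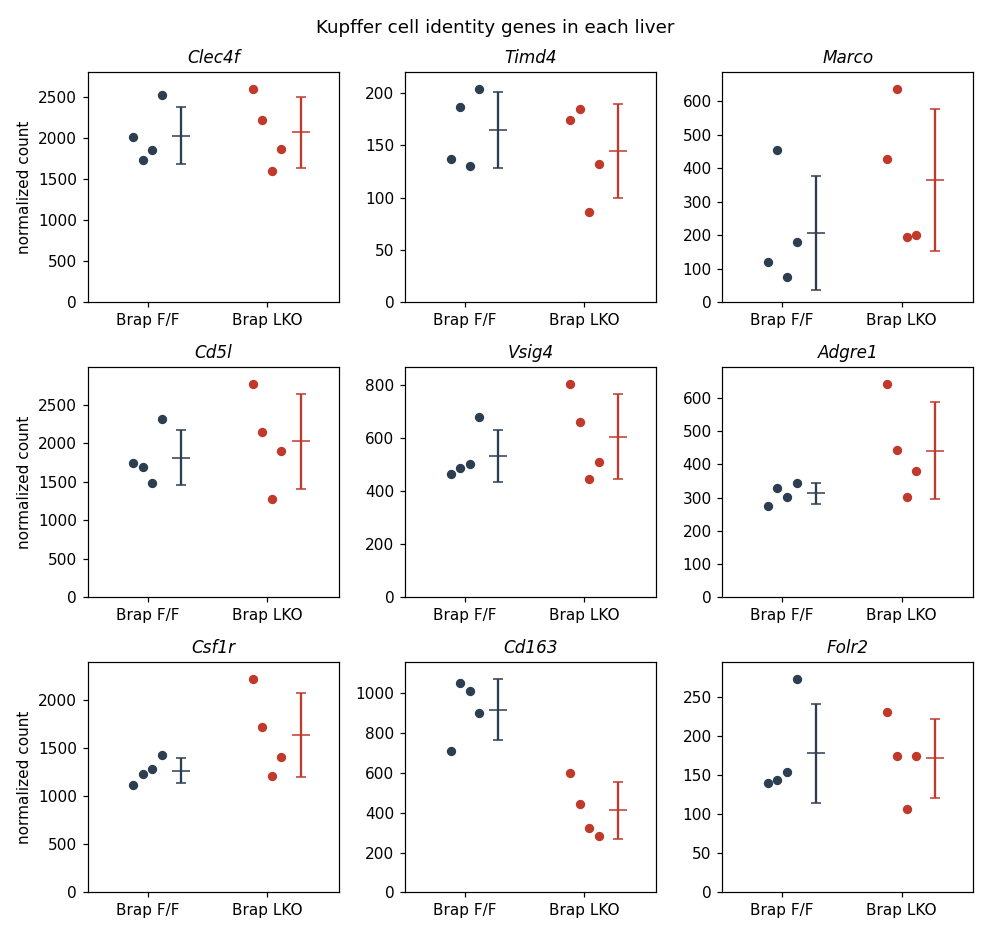
Normalized count (y axis, linear, from 0) of each Kupffer cell identity gene in the 4 Brap F/F livers (dark) and the 4 Brap LKO livers (red). Each point is 1 liver, in replicate order from left to right, and the bar beside the points gives the mean ± SD; the groups are apart for Cd163 and overlap for the other 8 genes.

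Clec4f, a C-type lectin of the Kupffer cell surface, did not separate the groups. Its normalized counts were 2597, 2216, 1601 and 1866 in Brap LKO replicates 1 to 4 and 2009, 1733, 1849 and 2519 in Brap F/F replicates 1 to 4. The lowest and the highest liver were both Brap LKO, so that the Brap F/F values lay inside the Brap LKO range. The log2 fold change of Brap LKO over Brap F/F was 0.02 (standard error, SE, 0.161; limma adjusted p = 0.960). The 95% interval for Clec4f ran from a fold of 0.789 to 1.30, which bounds the difference that these 8 livers allow. The gene lies on chromosome 6 from 83644542 to 83656187 (mm10, minus strand, 7 exons).

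Timd4 encodes TIM-4, a phosphatidylserine receptor that binds dying cells and marks Kupffer cells that have been in the liver for long. Brap LKO replicates 1 to 4 held 174, 185, 86.0 and 132 normalized counts of it, and Brap F/F replicates 1 to 4 held 137, 187, 130 and 204. Brap LKO replicate 3 was the lowest of the 8 and the rest of the 2 groups overlapped. Timd4 differed by a log2 fold change of -0.22 (SE 0.252, limma adjusted p = 0.690), with a fold between 0.578 and 1.27. Without Brap LKO replicate 3 it was 0.0044, on the other side of 0. Timd4 is on chromosome 11 from 46810800 to 46844332 (plus strand).

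Marco, a class A scavenger receptor for bacteria and particles, was the most variable member in both groups. Brap LKO replicates 1 to 4 had normalized counts of 427, 636, 193 and 200, and Brap F/F replicates 1 to 4 had 119, 455, 73.6 and 181. Replicate 2 was the highest liver of each group, and the highest Brap F/F value exceeded 3 of the 4 Brap LKO values. The coefficient of variation was 58.1% in Brap LKO livers and 82.6% in Brap F/F livers. The log2 fold change of 0.96 (SE 0.562, limma adjusted p = 0.433) was the largest positive value among the members, and its interval ran from a fold of 0.812 to 4.68. Leaving out 1 liver at a time moved it between 0.58 and 1.45, and none of these 8 fits passed the threshold. Marco is on chromosome 1 from 120474538 to 120505024 (minus strand, 17 exons).

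Cd5l encodes AIM, a protein that macrophages secrete into plasma, where it travels with IgM and binds debris and lipids. The Brap LKO livers had normalized counts of 2765, 2142, 1279 and 1898, and the Brap F/F livers 1739, 1695, 1486 and 2318. As with Clec4f, the Brap LKO livers held both the lowest and the highest value. Cd5l had a log2 fold change of 0.13 (SE 0.220, limma adjusted p = 0.807), with a fold between 0.774 and 1.54. Without Brap LKO replicate 1 it was -0.04. The gene is on chromosome 3 from 87357881 to 87371073 (plus strand).

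Vsig4, also named CRIg, is the complement receptor with which Kupffer cells take bacteria coated with C3 fragments from the blood. Normalized counts of 804, 661, 447 and 509 were found in Brap LKO and of 466, 489, 501 and 679 in Brap F/F, in replicate order. Brap F/F replicate 4 stood above the other 3 livers of its group, and the Brap LKO range enclosed the Brap F/F range. For Vsig4 the log2 fold change was 0.16 (SE 0.190, limma adjusted p = 0.702), with a fold between 0.831 and 1.501. Vsig4 is on chromosome X from 96247203 to 96293438 (minus strand).

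Adgre1, which encodes F4/80, was higher in 3 of the 4 Brap LKO livers than in every Brap F/F liver, and did not pass the test. In replicate order, the counts were 642, 443, 302 and 380 in Brap LKO livers and 275, 331, 303 and 345 in Brap F/F livers. Brap LKO replicate 3 lay inside the Brap F/F range. The log2 fold change was 0.44 (SE 0.202, unadjusted p = 0.0541, limma adjusted p = 0.327), and the two-sided exact permutation test over the 70 arrangements of 4 livers against 4 gave p = 0.114, where the smallest p it can give is 0.0286. The 95% interval ran from a fold of 0.993 to 1.86, so that a rise of that size and no change both lie within what these livers allow. Without Brap LKO replicate 1 the log2 fold change was 0.25. Adgre1 is on chromosome 17 from 57358691 to 57483527 (plus strand, 22 exons).

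Csf1r encodes the receptor for CSF1 and IL-34, on which Kupffer cells and monocytes depend. Its normalized counts were 2219, 1723, 1211 and 1407 in Brap LKO livers and 1123, 1237, 1284 and 1430 in Brap F/F livers. Brap LKO replicates 1 and 2 exceeded every Brap F/F liver, and the other 2 lay inside the Brap F/F range. With all livers the log2 fold change was 0.34 (SE 0.170, limma adjusted p = 0.367), with a fold between 0.971 and 1.65. Without Brap LKO replicate 1 the log2 fold change was 0.18. Of its exon bases, 15.1% overlap Hmgxb3 on the other strand, and since the use of strand in counting is not given in the sources used here, some of its reads may belong to that gene.

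Cd163, the receptor that takes up complexes of haptoglobin and hemoglobin, was the member that set the groups apart. Its normalized counts were 601, 443, 324 and 283 in Brap LKO replicates 1 to 4 and 711, 1052, 1011 and 901 in Brap F/F replicates 1 to 4. The highest Brap LKO liver lay below the lowest Brap F/F liver. That order was found in 4.39% of the tested genes, and the reverse order in 5.48%. The mean was 413 ± 143 in Brap LKO and 919 ± 152 in Brap F/F (SD, n = 4 each), a fitted fold of 0.436 (95% interval 0.306 to 0.620). The log2 fold change was -1.20 (SE 0.226, unadjusted p = 0.000427, limma adjusted p = 0.0532), and the two-sided exact permutation test gave its smallest possible p, 0.0286. By unadjusted p-value Cd163 ranked 123 of the 15352 tested genes, of which 118 were called. It spans chromosome 6 from 124304656 to 124330527 (plus strand, 17 exons) and shares no exon bases with another gene.

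The Cd163 call depended on the setting, while its direction did not. Its log2 fold change lay between -1.40 and -1.04 over 23 alternatives. In 7 of them the adjusted p-value was under 0.05, among them DESeq2 on the recovered reads (adjusted p = 0.000169), whereas edgeR on the same reads gave an adjusted p = 0.0570. Of the 8 fits that each left out 1 liver, the fit without Brap LKO replicate 1 passed (log2 fold change -1.40, adjusted p = 0.0439) and the other 7 gave adjusted p-values between 0.0606 and 0.132. The animal numbers in the labels form a lower and a higher series, of 3 Brap LKO and 1 Brap F/F livers and of 1 Brap LKO and 3 Brap F/F livers. The difference in mean log2(normalized count + 1) of Cd163 was -0.69 within the lower series and -1.797 within the higher series. Each series has only 1 liver of a group. With the series as a covariate the log2 fold change was -1.24 (limma adjusted p = 0.102). In mean log2 values, Marco (1.65 and 0.13), Adgre1 (0.68 and 0.22), Csf1r (0.57 and 0.099) and Cd5l (0.18 and 0.076) were higher in Brap LKO within both series. Clec4f, Timd4, Vsig4 and Folr2 were higher in the lower series and lower in the higher series. In plain means of normalized counts, Marco was lower in Brap LKO within the higher series (200 against 236).

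Folr2, a folate receptor of tissue macrophages, did not separate the groups. The livers labelled Brap LKO had normalized counts of 230, 175, 107 and 175, and those labelled Brap F/F had 140, 144, 155 and 273. The highest value was Brap F/F replicate 4 and the lowest Brap LKO replicate 3. Between the groups the log2 fold change was -0.04 (SE 0.269, limma adjusted p = 0.950), with a fold between 0.638 and 1.48, and it lay above 0 in 5 of the 23 alternatives. An antisense gene, Gm10602, overlaps 63.1% of its exon bases, so that its counts may hold reads of both. Folr2 is on chromosome 7 from 101839988 to 101857194 (minus strand).

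To compare levels between genes, reads were divided by the length of all exons of the gene and by the depth of the liver (RPKM, computed from the recovered reads). On this scale Cd5l had the highest median over the 8 livers, an RPKM of 31.0, followed by Clec4f with 27.1. These 2 genes overlapped in range (21.7 to 49.5 and 21.4 to 38.3) and their order was not resolved. Vsig4 followed with 11.4 and Csf1r with 7.63, and these also overlapped in range (10.1 to 19.8 and 6.49 to 14.0). The range of Clec4f lay wholly above that of Vsig4, and the range of Csf1r wholly above that of Cd163. Cd163 had a median of 4.18, Marco 3.60, Folr2 3.56, Adgre1 3.34 and Timd4 2.41, and each of these overlapped with the next. With the longest transcript as the length, Marco and Folr2 changed places and the rest kept their order. With the length of all exons, Cd163 held a different place in the 2 groups. Its median RPKM was 5.57 in the Brap F/F livers, below that of Csf1r (6.75) and above that of Folr2 (3.08). In the Brap LKO livers it was 2.46, beside Timd4 (2.55) and the lowest of the 9 on this length. Cd163 has 5461 bases over all exons and 4443 in its longest transcript, whereas Timd4 has 2173 in both. The order of these 2 genes in the Brap LKO livers therefore depends on the length used.

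**Figure D2:**
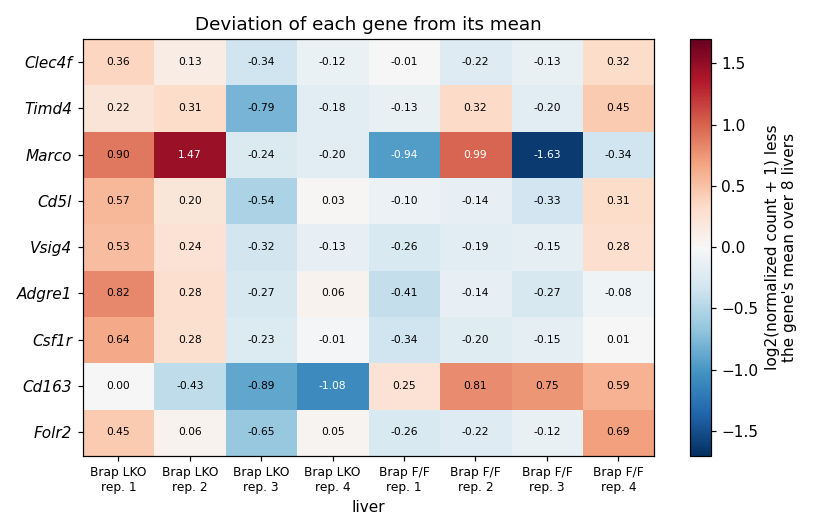
Deviation of log2(normalized count + 1) of each Kupffer cell identity gene (rows) from its own mean over the 8 livers (columns), as colour and as printed value. Most genes are high in Brap LKO replicate 1 and low in Brap LKO replicate 3, whereas Cd163 is above its mean in all 4 Brap F/F livers and near or below it in the 4 Brap LKO livers.

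Most members shared a pattern from liver to liver within each group. Brap LKO replicate 1 had the highest value of its group in 7 of the 9 members and Brap LKO replicate 3 the lowest in 8 of the 9. In the Brap F/F group replicate 4 was the highest in 7 of the 9. The sum over the 9 members ran from 5550 to 10461 normalized counts in Brap LKO livers and from 6719 to 8848 in Brap F/F livers, so that the Brap LKO range enclosed the other. The mean deviation of the 9 members on the log2 scale was 0.50 in Brap LKO replicate 1 and -0.47 in Brap LKO replicate 3, and in the Brap F/F livers it lay between -0.25 and 0.25.

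Cd163 followed the other members only once the difference between the groups was removed. Over the 8 livers, Pearson's r of a member with the mean of the other 8 was between 0.73 and 0.89 for 7 of the members, 0.41 for Marco and 0.04 for Cd163. Once the mean of each group was subtracted, r was 0.71 for Cd163, 0.52 for Marco and between 0.75 and 0.93 for the other 7. These are descriptions over 8 livers that share the size factor of their library. Among the Brap LKO livers Cd163 was highest in replicate 1, like most members, and among the Brap F/F livers it was lowest in replicate 1.

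The genes outside the list whose levels over the 8 livers were most like the mean of the members were Rhog, Zfp455, Adgre4, Tmc3, Arhgef11, Wfdc17, Plekhg5, Arhgap9, Ptgs1 and Cfp, with Pearson's r from 0.92 to 0.97. These 10 were picked as the highest of all tested genes over only 8 livers. High values of r follow in part from that choice, and they were not tested. Adgre4 encodes a myeloid receptor of the same family as F4/80, Cfp encodes the complement protein properdin, and Ptgs1 encodes cyclooxygenase 1. Ptgs1 is also in the list of further Kupffer cell genes. The log2 fold changes of these 10 genes lay between -0.16 (Cfp) and 0.47 (Tmc3).

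**Figure D3:**
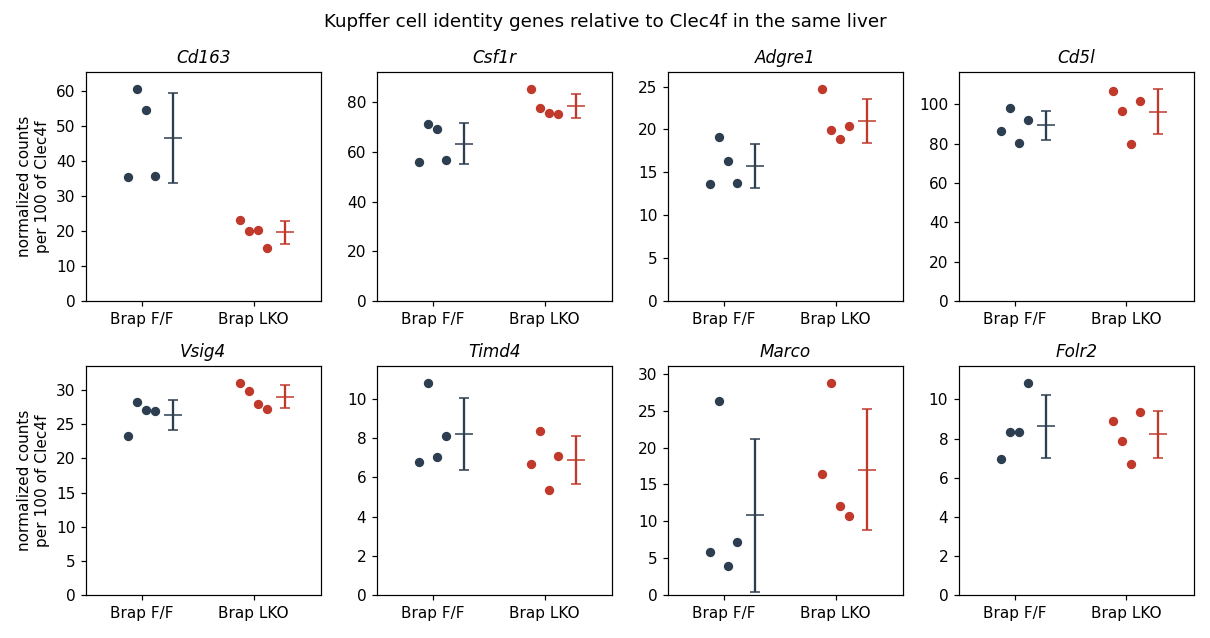
Normalized counts per 100 normalized counts of Clec4f in the same liver (y axis, linear, from 0) for the other 8 members, in the 4 Brap F/F livers (dark) and the 4 Brap LKO livers (red); each point is 1 liver in replicate order and the bar gives the mean ± SD. Cd163 lies between 15.2 and 23.1 in Brap LKO livers and between 35.4 and 60.7 in Brap F/F livers, Csf1r is apart in the other direction, and the other 6 genes overlap.

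Because Clec4f marks Kupffer cells and did not differ between the groups beyond its spread, each member was also expressed per 100 normalized counts of Clec4f in the same liver, a scale chosen after the data were seen. On it Cd163 stood at 23.1, 20.01, 20.2 and 15.2 in Brap LKO livers and 35.4, 60.7, 54.7 and 35.8 in Brap F/F livers. The means were 19.6 ± 3.31 and 46.6 ± 12.99 (SD, n = 4 each), and no Brap LKO liver reached the lowest Brap F/F liver. Csf1r stood at 85.4, 77.7, 75.7 and 75.4 in Brap LKO livers and 55.9, 71.4, 69.4 and 56.8 in Brap F/F livers, with every Brap LKO liver higher. Ratios that set the groups apart in either direction were found in 4.14% of the tested genes. Fitted on this scale, Cd163 had a log2 difference of -1.22 (adjusted p = 0.00227 from limma) and the other 7 members did not pass, with Csf1r at 0.32 and Adgre1 at 0.42. Timd4 per Clec4f was 6.88 ± 1.23 in Brap LKO and 8.19 ± 1.83 in Brap F/F (SD, n = 4 each), and these overlapped.

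Further Kupffer cell genes were read beside the members. None of 17, from Clec1b and Fcna to the transcription factors, passed the test (0 in limma, edgeR and DESeq2; 3 of 17 had an unadjusted p-value under 0.05 in limma), and their median log2 fold change was 0.13 against -0.01 over all tested genes. The unadjusted threshold was met by 15.8% of all tested genes in limma, so that 3 of 17 is near that share. The ferroportin gene Slc40a1, with which macrophages release iron from red cells, differed by a log2 fold of 0.35 (limma adjusted p = 0.282) and Irf8, a transcription factor of the myeloid lineage, by 0.28 (adjusted p = 0.277). Nr1h3, which encodes LXRα and is also expressed in hepatocytes, was lower in all Brap LKO livers (2419 to 2694) than in all Brap F/F livers (2830 to 3008), at a log2 fold of -0.20 (limma adjusted p = 0.181). That order was found in 4.39% of all tested genes. The other transcription factors named above, Spic, Id1 and Id3, had log2 fold changes of -0.06, 0.09 and 0.14. Hmox1, the heme oxygenase that acts after hemoglobin uptake by CD163, was 424 ± 53.1 in Brap LKO livers and 416 ± 48.6 in Brap F/F livers (SD, n = 4 each). C6, the most abundant gene of the list and one that hepatocytes make too, had a log2 fold change of 0.75 (limma adjusted p = 0.329).

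The plasma proteins that members bind did not pass the test either (0 of 5 in limma, edgeR and DESeq2; 0 with an unadjusted p-value under 0.05 in limma). Hp, which encodes haptoglobin, the partner of CD163, had a normalized count of 87385 ± 22046 in Brap LKO and 109520 ± 44658 in Brap F/F (SD, n = 4 each; log2 fold change -0.27, limma adjusted p = 0.685). C3, bound by Vsig4 after cleavage, had a log2 fold change of -0.06, and Ighm, the heavy chain of the IgM that carries AIM, one of 0.15. Of 11 other scavenger and phagocytic receptors tested, 0 passed in limma or edgeR and 1 in DESeq2 (2 with an unadjusted p-value under 0.05 in limma), and the median log2 fold change was 0.08. Axl, a receptor for dying cells, was higher in all Brap LKO livers (801 to 1088) than in all Brap F/F livers (474 to 781), at a log2 fold of 0.64 (limma adjusted p = 0.104). That order was found in 5.48% of all tested genes. Stab1 and Mrc1, which sinusoidal endothelium also makes, had log2 fold changes of 0.02 and 0.18. Cd163 had the lowest log2 fold change of the 9 members and of these 11 receptors.

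**Figure D4:**
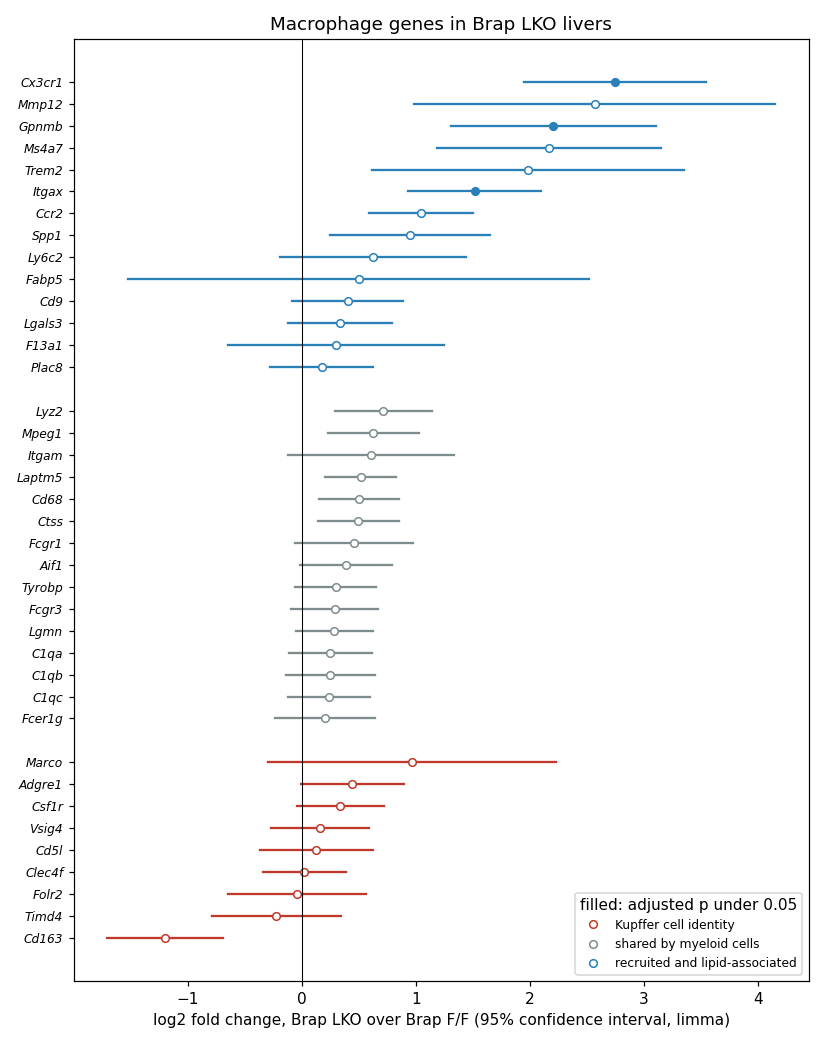
Log2 fold change of Brap LKO over Brap F/F (x axis) with its 95% confidence interval from limma for the 9 Kupffer cell identity genes (red), 15 genes shared by myeloid cells (grey) and 14 genes of monocyte-derived and lipid-associated macrophages (blue). Filled circles mark an adjusted p-value under 0.05, which Cx3cr1, Gpnmb and Itgax reach; in this fit all 29 grey and blue points lie above 0 (Fabp5 fell below it in another setting), and the red points spread on both sides.

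Genes that Kupffer cells share with other macrophages and myeloid cells had positive differences throughout, none past the threshold. Of 15 such genes 0 passed in limma or edgeR, 3 passed in DESeq2 and 5 met the unadjusted threshold of 0.05 in limma. Over all tested genes DESeq2 called 4.07%, and 15.8% met that unadjusted threshold in limma. All 15 log2 fold changes lay above 0, as did those of 7375 of the 15352 tested genes. The median of the 15 was 0.39, compared with 0.13 for the members and -0.01 over all tested genes. Lyz2, the lysozyme of myeloid cells, stood at 1640, 1538, 963 and 1289 normalized counts in Brap LKO livers and 784, 809, 641 and 1058 in Brap F/F livers (log2 fold change 0.72, limma adjusted p = 0.121). The lowest Brap LKO liver lay inside the Brap F/F range. On the same log2 scale Laptm5 differed by 0.52 (limma adjusted p = 0.130), Mpeg1, the pore-forming protein of macrophages, by 0.63 (adjusted p = 0.145), and C1qa, C1qb and C1qc, the chains of complement C1q that Kupffer cells also make, lay between 0.24 and 0.25. The log2 ratio of the summed members to the summed shared genes was -0.70 ± 0.208 in Brap LKO and -0.32 ± 0.178 in Brap F/F (SD, n = 4 each). The livers ranged from -0.94 to -0.47 and from -0.54 to -0.17, which overlapped.

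Markers of monocyte-derived and lipid-associated macrophages included the genes of this comparison that did pass the test. Of 14 tested, 3 rose and 0 fell at an adjusted p-value under 0.05, where limma called 0.769% of all tested genes in either direction. The median log2 fold change of the 14 was 0.999. The number past the threshold was 3 in edgeR, 6 in DESeq2, 5 with the same total per liver, 1 with quantile normalization and 0 to 3 without 1 liver. EdgeR called 0.795% of all tested genes and DESeq2 4.07%. Cx3cr1, the fractalkine receptor, stood at 100, 51.8, 100 and 180 normalized counts in Brap LKO livers and 11.4, 12.2, 12.6 and 20.6 in Brap F/F livers (log2 fold change 2.75, SE 0.354, limma adjusted p = 0.0155). Itgax, which encodes CD11c, rose from 19.6 ± 2.71 in Brap F/F to 60.1 ± 20.8 in Brap LKO (SD, n = 4 each; limma adjusted p = 0.0402). Gpnmb, a glycoprotein of lipid-laden macrophages, rose from 6.11 ± 4.00 to 29.4 ± 8.04 (SD, n = 4 each, limma adjusted p = 0.0480). Its Brap F/F livers held 3, 6, 3 and 12 reads, so that the size of its rise rests on few reads. The Brap LKO values were all above the Brap F/F values in 6 of the 14 genes, an order found in 5.48% of all tested genes. Ccr2, the receptor with which monocytes leave the marrow, was 53.7 ± 10.9 against 25.3 ± 3.67 (SD, n = 4 each; adjusted p = 0.0566), and Ms4a7 was 39.8 ± 14.9 against 8.92 ± 5.44 (adjusted p = 0.0618). Among these 14 genes and the 15 shared genes, Fabp5 was the 1 whose log2 fold change (0.50) turned below 0 (-0.11) in an alternative. These calls rested on all livers: Itgax and Gpnmb each passed in 1 of the 8 fits without 1 liver, that without Brap F/F replicate 4, and had adjusted p-values up to 0.120 and 0.165. Cx3cr1 passed in 5 of the 8 and missed the threshold without replicate 1 of Brap LKO (adjusted p = 0.0666), its replicate 3 (0.0548) or replicate 2 of Brap F/F (0.0524).

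Relative to Clec4f, Cx3cr1 stood at 5.52 ± 3.18 per 100 in Brap LKO and 0.693 ± 0.103 in Brap F/F (SD, n = 4 each), and Lyz2 at 65.5 ± 4.54 and 40.6 ± 5.04. Neither gene overlapped between the groups on this scale, on which 6 of the 14 markers and 1.41% of all tested genes passed (limma). The liver with the most Cx3cr1, Brap LKO replicate 4, had the lowest Cd163 of the 8, while Brap LKO replicate 1, with the highest Cd163 of its group, had as much Cx3cr1 as replicate 3. The parts of a change in the makeup of the macrophages and of a change of Cd163 within Kupffer cells were not tested and cannot be told apart in these libraries.

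Of 11 ligands and niche signals, 1 passed the test (1 in edgeR, 3 in DESeq2, 2 with the same total per liver and 0 with quantile normalization), and 3 had groups that did not overlap. Limma called 0.769% of all tested genes, edgeR 0.795% and DESeq2 4.07%. Every Brap LKO liver lay above every Brap F/F liver, as in these 3, in 5.48% of all tested genes. Csf1, the ligand of Csf1r, stood at 378, 398, 487 and 399 normalized counts in Brap LKO livers and 369, 190, 260 and 268 in Brap F/F livers. Every Brap LKO liver was higher, and the log2 fold change was 0.64 (SE 0.181, limma adjusted p = 0.142). Il34, the other ligand, differed by a log2 fold of -0.25 (limma adjusted p = 0.744) with values of 51.0 to 55.2 in Brap LKO livers and a wider 30.8 to 106 in Brap F/F livers. Tgfb1, which with its relatives supports Kupffer cell identity, was higher in every Brap LKO liver (264 to 356) than in every Brap F/F liver (182 to 241; log2 fold change 0.49, adjusted p = 0.108). Tgfb2 rose from 8.61 ± 3.75 to 32.7 ± 6.89 (SD, n = 4 each; limma adjusted p = 0.0435). Of the 8 fits without 1 liver, Tgfb2 passed only in that without Brap F/F replicate 4 (adjusted p = 0.0254) and the others gave up to 0.150. The Notch ligands Dll1 and Dll4 and the further ligands Gdf2 and Bmp10 did not pass, with log2 fold changes of -0.15, 0.08, 0.29 and 0.17.

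Markers of other cells were summed in each liver to set their level beside the members. Over all tested genes 0.769% were called by limma, 0.795% by edgeR and 4.07% by DESeq2. The 9 markers of sinusoidal endothelium, cells that share several scavenger receptors with Kupffer cells, had 0 calls (0 at an unadjusted p-value under 0.05; 0 in edgeR and DESeq2), a median log2 fold change of 0.17 and sums of 7805 to 11538 normalized counts in Brap LKO livers and 6868 to 10272 in Brap F/F livers. The 8 stellate cell and fibroblast markers had sums of 7075 to 11057 and 4739 to 8247, with 1 call (1 in edgeR, 3 in DESeq2, 0 with quantile normalization): Pdgfrb, a growth factor receptor of these cells, rose by a log2 fold of 0.91 (adjusted p = 0.0494) and passed in 1 of the 8 fits without 1 liver, that without Brap F/F replicate 4. Of 6 cholangiocyte markers 1 passed (1 in edgeR, 2 in DESeq2, 0 with quantile normalization): Cftr, at 14.1 ± 5.38 against 1.02 ± 0.859 (SD, n = 4 each; adjusted p = 0.0331); it passed in 2 of the 8 such fits, those without replicate 3 of Brap LKO or replicate 4 of Brap F/F. The Brap F/F mean of Cftr lay below 3 reads, so that the size of its rise rests on few reads. The 6 cholangiocyte markers summed to 1349 to 3015 and 718 to 1485, which overlapped. Most of this was Spp1 (969 to 2254 and 500 to 1125), which is also in the list of monocyte-derived and lipid-associated macrophage genes. The 7 hepatocyte markers had 0 calls (1 at an unadjusted p-value under 0.05; 0 in edgeR and DESeq2), a median log2 fold change of -0.42 and overlapping sums.

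Markers of blood cells gave no calls in limma, and outside the lymphocytes none in edgeR or DESeq2 either (2 dendritic cell markers, both higher in Brap LKO, and 0 neutrophil or red cell markers had an unadjusted p-value under 0.05 in limma). The 10 lymphocyte markers summed to 185 to 265 normalized counts in Brap LKO livers and 126 to 184 in Brap F/F livers. These sums did not overlap, but the lowest Brap LKO sum (185.1) lay barely above the highest Brap F/F sum (183.6). Every Brap LKO liver lay above every Brap F/F liver in 2 of the 10 markers and in 5.48% of all tested genes. Of the 10 markers, limma and edgeR called 0 and DESeq2 called 1, and 3 met the unadjusted threshold of 0.05 in limma. Over all tested genes DESeq2 called 4.07%, and 15.8% met that unadjusted threshold in limma. Neutrophil markers summed to 78.9 to 116 and 36.8 to 119, and the defining marker Ly6g was at 0 in 6 of the 8 livers and at 1 read in the other 2. Dendritic cell markers summed to 335 to 400 and 294 to 396. Their median log2 fold change was 0.93, with 4 of the 5 tested above 0, from Siglech at 1.20 to Clec9a at -0.24, and none past the threshold. The hemoglobin transcripts and Alas2, which stand for red cells, had a median log2 fold change of -0.06 and overlapping sums (3788 to 4325 and 4197 to 4655). The part of these cell types in the values of the members was not tested.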

How the data were processed

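Livers of 4 mice labelled Brap LKO and 4 labelled Brap F/F were used, and all 8 per-liver columns entered (0 were left out). The authors isolated RNA with TRIzol and RNeasy columns, used the Universal Plus mRNA kit of NuGEN, aligned single-end reads of 50 bases to mm10 with STAR 2.6.0c and annotated genes with biomaRt; the counting tool, annotation release and strand setting are not given in the sources used here. The deposited signal is reads counted per gene divided by the authors' DESeq2 size factor of the liver. Of its values, 100% were whole multiples of 1 read (tolerance 0.001 reads), so reads were recovered. A second table with the authors' own comparison (mean, log2 fold change, standard error, p-values) was not used.

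Log2(normalized count + 1) was compared with limma 3.58.1 in R 4.3.3 (lmFit, eBayes with trend, no covariates) for genes with a mean of at least 5, with Benjamini-Hochberg adjustment over all 15352 at 0.05. This scale understates the change of genes with few reads. The study used DESeq2, a test for counts; because the values are not counts, edgeR 4.0.16 (quasi-likelihood) and DESeq2 1.42.0 on the recovered reads were alternatives, beside other pseudocounts (0.5, 5), filters (none, 20), scalings, weights, covariates, thresholds and leaving out each liver. Single genes were also given two-sided exact permutation tests. The main limma fit was tested on simulated data, and the other fits were not. The spread between mice sets the intervals and p-values, and a count of 0 allows up to 3 reads.

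Coordinates, exons and overlaps are from GENCODE vM21 (GRCm38), in which 24430 of the 24451 gene IDs were found; promoters are from RefSeq. The members and the gene lists were chosen with earlier results of these data known. Named are the 9 members, Brap, the 10 most alike genes and, of each list, the genes past the threshold, the 3 with the smallest p-values and the 2 with the highest means; values are not given for all of them, and other genes named with values were chosen after these were seen. Same-numbered livers deviated together in 2 of the 4 pairs (correlations of -0.13, 0.0034, 0.20 and 0.29), so numbers were not taken as pairs. Python 3.11.15 with pandas 2.3.3, numpy 2.4.6, scipy 1.17.1 and matplotlib 3.10.9 was used.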

Additional observations from a re-analysis of the deposited data

Results flagged for a closer look

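In 2 of the 18 groups of 4 livers examined (9 members in each group), 1 liver stood apart by Dixon's criterion, where chance gives 0.9. Vsig4, the complement receptor, had a normalized count of 679 in Brap F/F replicate 4, with the next liver of the group at 501. Folr2, the folate receptor, had 273 in the same liver, with the next at 155. Brap F/F replicate 4 had the highest value of its group in 7 of the 9 members. Without it the log2 fold change of Folr2 was 0.18 in place of -0.04, with an adjusted p = 0.705 from limma.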

How the results depend on the processing

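No member other than Cd163 passed the threshold under any of the 23 alternatives tried for it (22 for Clec4f), and Marco, Vsig4, Adgre1, Csf1r and Cd163 kept their direction in all of theirs. The number of members past the threshold was 1, Cd163, with a pseudocount of 5, no filter, the same total per liver, arrayWeights, DESeq2, the ratio to Clec4f (chosen after seeing the data) and an adjusted p under 0.1, and between 0 and 1 without 1 liver; it was 0 otherwise. Directions turned for 4 members near 0. Leaving out 1 liver moved the log2 fold change of Clec4f between -0.096 and 0.14 (below 0 without replicate 1 or 2 of Brap LKO or 2 or 3 of Brap F/F), that of Timd4 between -0.36 and 0.0044 (above 0 without Brap LKO replicate 3), that of Cd5l between -0.043 and 0.33 (below 0 without Brap LKO replicate 1) and that of Folr2 between -0.20 and 0.18 (above 0 without replicate 3 of Brap LKO or 4 of Brap F/F). With the animal series as a covariate Clec4f stood at -0.022 and Folr2 at 0.076, and Folr2 also at 0.031 with arrayWeights and at 0.11 with the same total. Over all genes, 118 calls became 479 with the same total (459 higher and 20 lower, with the median of all genes at 0.15), 78 with quantile normalization, 224 with arrayWeights, 625 with DESeq2, 217 with the ratio to Clec4f, 347 at an adjusted p under 0.1, and 18 to 232 without 1 liver. DESeq2 called 455 genes higher and 170 lower, and limma 102 and 16. With the replicate number as a block, 95 genes and 0 members were called (Cd163 adjusted p = 0.0840); the labels do not say that the numbers pair the mice. The cause of these differences was not tested. With 4 livers a group, the intervals given for each member set what could be detected.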
